A study of Drosophila melanogaster with 8 samples.

Results

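The cytosolic ribosome of the fruit fly Drosophila melanogaster is built from ribosomal RNA and a set of ribosomal proteins, and the genes of these proteins were described here in whole pupae raised at 3 g or at normal gravity. Members were taken by name: every gene called RpL, RpS or RpLP followed by a number, with or without letters after it, and sta (stubarista), which encodes a small-subunit protein. The deposited table held 88 such genes among 13918 listed, 87 by the name pattern and 1 by addition. In 9 cases 2 members differed only in a final a or b. The gene of such a pair with the lower mean over all libraries is called the copy here and the other the main gene. That gave 79 main genes, 32 of the small and 47 of the large subunit, and 9 copies.

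All 8 libraries came from wild-type flies of the Canton-S strain, cultivated at 25 °C and collected as pupae of stage P6, early in pupal life. In 4 libraries the pupae came from the 3 g treatment of a study of chronic hypergravity, and in 4 from the control at 1 g. Each library held polyadenylated RNA of 4 whole pupae pooled, and the labels used here do not give their sex. Levels are in transcripts per 1000000 (TPM), a unit that corrects for transcript length, so that genes can be set side by side. Errors after ± are SD between pools unless marked SE (n = 4 in each group).

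Ribosomal proteins are needed by every cell, most of them as a single molecule in each ribosome, and their messenger RNAs are among the most abundant in growing tissue. In flies, mutations that lower the dose of many of them give the Minute phenotype of slow development and thin bristles. Some ribosomal proteins are encoded by a pair of genes, of which 1 serves the whole body and the other is used mainly in particular tissues. RpS10a and RpS19b, for example, are known from the germline.

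The groups differed in markers of several tissues. Over all genes tested, 2.06% were called lower and 2.23% higher at 3 g, at an adjusted p under 0.05 by limma. Of 16 muscle markers, 10 fell at 3 g by limma's test with Benjamini-Hochberg adjustment, among them the troponin gene TpnC4 (460 ± 186 TPM in controls, 97.7 ± 27.0 TPM at 3 g, adjusted p = 0.00970), the actin gene Act79B (adjusted p = 0.0132) and Mlp60A, which encodes a LIM protein (adjusted p = 0.0158). That count rested on single libraries: it was 1 without control replicate 2, 4 without 3 g replicate 1, 3 g replicate 3 or control replicate 3, 5 without 3 g replicate 2, 6 without 3 g replicate 4, 10 without control replicate 4 and 11 without control replicate 1, while 15 of the 16 lay below 0 in each of these fits. Without control replicate 2 the adjusted p of Act79B was 0.052 and that of Mlp60A 0.0635. The muscle markers summed to between 4437 and 16708 TPM in controls and between 1741 and 2463 TPM at 3 g, with no marker at 0 throughout. Of 12 fat body and salivary gland markers tested, 8 rose, led by the ecdysone-induced genes Eig71Ec, Eig71Ed and Eig71Ea. With 1 library left out at a time that count was between 7 and 9. The 14 genes of that list summed to between 1730 and 3522 TPM in controls and between 11262 and 33161 TPM at 3 g. Transcripts of the mitochondrial genome held between 78054 and 107621 TPM in controls and between 60454 and 66039 TPM at 3 g. TPM is a share of the library, so a larger sum for some genes leaves less for the rest, and in whole pupae fewer cells of a type and less RNA per cell cannot be told apart. Their part in the results that follow was not tested.

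Ribosomal protein transcripts took a large share of every library. The 88 genes summed to 18.2%, 16.9%, 17.3% and 15.1% of all TPM in control replicates 1 to 4, and to 17.7%, 19.8%, 17.4% and 16.4% in 3 g replicates 1 to 4. The ranges overlapped, with the highest share in 3 g replicate 2 and the lowest in control replicate 4. The means were 16.9 ± 1.31% in controls and 17.8 ± 1.41% at 3 g, a log2 ratio of 0.08. Without those 2 libraries the log2 ratio was -0.03. The small-subunit main genes summed to between 0.639 and 0.649 of the large-subunit main genes in the 8 libraries. The ratio of the median small-subunit to the median large-subunit main gene ranged more widely, from 1.08 in 3 g replicate 4 to 1.16 in 3 g replicate 3.

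Among the main genes, most levels lay close together and 2 stood far above. The median of the 79 was 1820 TPM, and the quartiles were 1594 and 2364.5 TPM. RpL41, which encodes the smallest protein of the ribosome, averaged 12608 TPM over the 8 libraries and was the third most abundant of all listed transcripts. RpL39, whose small product lines the tunnel through which the new chain leaves the large subunit, averaged 9237 TPM and ranked sixth. RpS29, RpL38 and RpS3A followed at 3740, 3630 and 3434 TPM. The annotated coding lengths of RpL41 and RpL39 are only 75 and 153 bases, and reads were 100 bases long. How the correction for length acted on such short genes is not known here, so these 2 levels and ranks are uncertain. At the lower end of the main genes stood RpL22 at 738 TPM, RpL35A at 861 TPM and RpL34b at 913 TPM. Of the main genes, 56 were among the 100 most abundant transcripts and 78 among the 200 most abundant. The shorter the coding length, the higher the level tended to be (Spearman's rho -0.44 across the 79 main genes, and -0.40 without RpL41 and RpL39). The genes share libraries and are not independent, and TPM is itself divided by length, so this is a description.

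**Figure D1:**
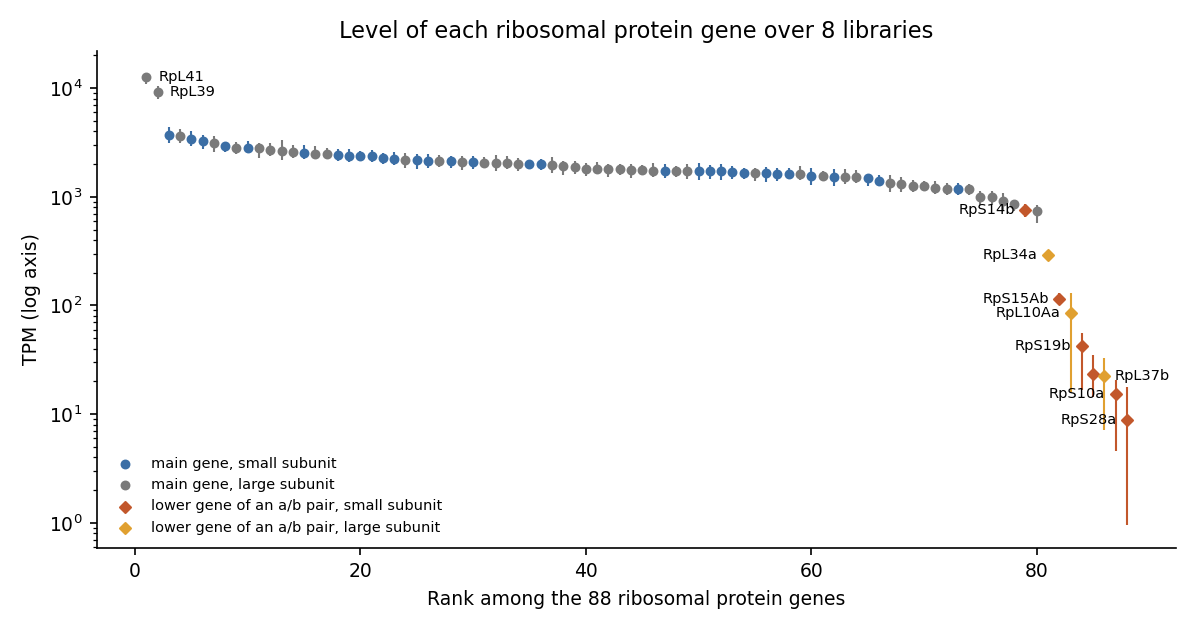
Mean level of each of the 88 ribosomal protein genes over the 8 libraries (TPM, log axis) against its rank among them; bars run from the lowest to the highest library. The main genes form a plateau between 738 and 3740 TPM under RpL41 and RpL39, while 6 of the copies lie under 100 TPM with long bars.

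By the Ensembl 115 annotation, which may not be that of the values, the main genes were spread over the genome, with 14 on the X chromosome, 17 on 2L, 17 on 2R, 14 on 3L, 16 on 3R and 1, RpS3A, on chromosome 4. Of the copies, 1 lay on X, 2 on 2R and 6 on 3R. In 7 of 9 pairs the main gene was on the X chromosome, and in 6 of these the copy was on an autosome. A single coding exon was annotated in 5 of the copies. In 3 pairs the copy had fewer coding exons than the main gene, among them RpL10Aa and RpL37b, each with 1 against 3. RpS14a and RpS14b lay side by side on the X chromosome with no protein-coding gene between them, and they are known to encode the same protein.

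No ribosomal protein gene passed the test for a difference between 3 g and control. The model was limma's on log2(TPM + 0.5), with p-values adjusted by Benjamini-Hochberg over 12044 genes, those whose mean reached 1 TPM, a filter that all 88 members passed. Called were 0 of the 88 at an adjusted p under 0.05, where 4.28% of all tested genes were called (2.23% higher and 2.06% lower at 3 g). At an unadjusted p under 0.05 there were again 0 of 88, against 16.3% of all tested genes. In 0 of the 88 did the 4 values at 3 g lie all above or all below the 4 controls, which was so for 12.5% of all tested genes. The main genes moved together from library to library, as given below, so these are not 88 independent outcomes.

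The main genes were measured tightly enough to bound a change. Their SD within groups had a median of 0.12 on the log2 scale (range 0.09 in RpL27 to 0.18 in RpL34b), against 0.28 over all tested genes. The log2 differences between 3 g and control ran from -0.04 to 0.23, that is, from 0.975-fold to 1.17-fold. All 79 intervals at 95% lay within 0.5 of 0 on the log2 scale, and together they reached from 0.812-fold to 1.39-fold. Changes within those bounds could not be told from the spread between pools. The subunits gave the same picture: the 32 small-subunit main genes had a median log2 difference of 0.08 and reached 0.15, and the 47 large-subunit main genes a median of 0.07 and a range of -0.04 to 0.23. From the lowest to the highest of the 8 libraries, a main gene spanned between 1.21-fold (RpS28b) and 1.51-fold (RpL5).

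RpL5, which carries the 5S ribosomal RNA into the large subunit together with RpL11, had the smallest p of all members. It read 2603, 2346, 2580.0 and 2198 TPM in control replicates 1 to 4 and 2722, 3312, 2806 and 2559 TPM in 3 g replicates 1 to 4. The groups overlapped, since the lowest pool at 3 g lay under the controls' replicates 1 and 3. The means were 2432 ± 194 and 2850 ± 325 TPM, a log2 difference of 0.23 ± 0.11 (SE) with a 95% interval of -0.02 to 0.48 and an adjusted p of 0.373 by limma. Its partner RpL11 read 1578 ± 138 and 1681 ± 155 TPM, a log2 difference of 0.09.

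Members of other roles gave differences of the same order, none past the test. RpL3, near the site of peptide bond formation, read 1686 ± 144 TPM in controls and 1871 ± 128 TPM at 3 g. The stalk proteins, which recruit translation factors, differed by 0.05 (RpLP0), 0.08 (RpLP1) and 0.02 (RpLP2) on the log2 scale. The 2 genes that make a fusion to ubiquitin, RpL40 and RpS27A, differed by 0.13 and 0.10. RpS6, the substrate of S6 kinase downstream of insulin and TOR signals, read 1640 ± 140 and 1751 ± 122 TPM (log2 difference 0.10), and RpS3, at the entry of the messenger RNA channel, 1609 ± 138 and 1655 ± 119 TPM (0.04). RpS12, which flies use in competition between Minute and normal cells, differed by 0.07, RpL10, among the last proteins to join the large subunit, by 0.12, and sta by 0.06. RpL32, a gene often taken as a reference in fly work, read 2093 ± 144 and 2177 ± 184 TPM (0.06).

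The 2 most abundant members differed in which pool was lowest. RpL41 read 13199, 12748, 12968 and 11836 TPM in control replicates 1 to 4 and 12292, 13684, 13246 and 10892 TPM in 3 g replicates 1 to 4, with its lowest value at 3 g. RpL39 read 9905, 8299, 9793 and 7862 TPM in controls and 9828, 10535, 9524 and 8154 TPM at 3 g, with its lowest value among controls. Their log2 differences were -0.02 ± 0.09 and 0.09 ± 0.12 (SE). RpS29, RpL38 and RpS3A differed by 0.14, 0.16 and 0.15.

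The small differences of the main genes ran mostly one way, and that depended on 2 libraries. A log2 difference above 0 was found in 75 of 79 main genes (median 0.08, against -0.02 over all tested genes), in 70 after median-of-ratios rescaling, in 55 after quantile normalization and in 21, with the median at -0.03, when 3 g replicate 2 and control replicate 4 were both left out. With 3 g replicate 2 alone left out 54 were above 0, and with control replicate 4 alone left out 53. Among the 4 below 0 with all libraries were RpL35A (-0.04), RpL41 (-0.02) and RpL24 (-0.0075). Control replicate 4 was the lowest of the 8 libraries in 74 of 79 main genes, and 3 g replicate 2 the highest in 76. In that control pool the median main gene lay 0.20 under its own mean on the log2 scale, and in that 3 g pool 0.19 above it. Control replicate 4 also had the highest sum of muscle markers (16708 TPM) and of mitochondrial transcripts (107621 TPM), and 3 g replicate 2 the lowest sum of male germline markers. Their part in the order of the libraries was not tested.

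**Figure D2:**
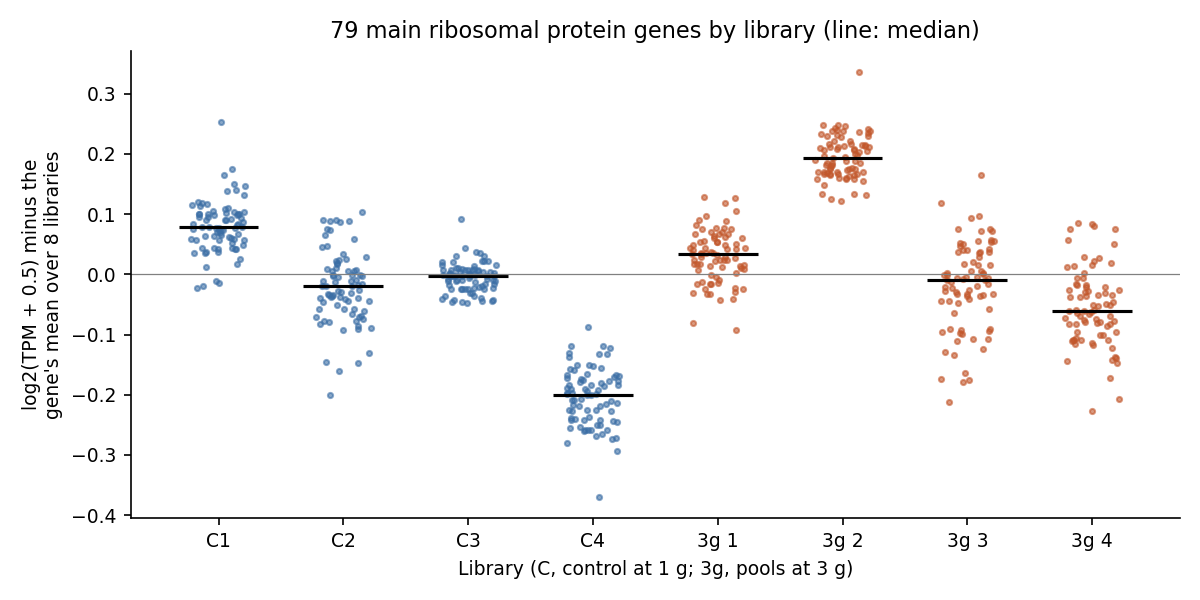
Each point is 1 of the 79 main genes in 1 library, as log2(TPM + 0.5) minus that gene's mean over the 8 libraries; the line is the median of the library. Control replicate 4 (median -0.20) and 3 g replicate 2 (median 0.19) lie apart from the other 6, whose medians are between -0.06 and 0.08.

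When every library was scaled to the same summed ribosomal protein TPM, a step chosen after seeing the data, 40 main genes lay above 0 and 39 below. RpL5 was then the 1 member at an unadjusted p under 0.05 (log2 difference 0.15, adjusted p = 0.157 by limma), where 16.4% of all genes tested passed. The even split is set by the scaling itself.

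The copies were split into 2 sets by level for description. RpS14b, RpL34a and RpS15Ab averaged 762, 289 and 114 TPM over the 8 libraries, and the other 6 averaged between 8.83 TPM (RpS28a) and 85.8 TPM (RpL10Aa). The dividing line of 100 TPM was chosen after the values were seen, with RpL10Aa just inside the low set and RpS15Ab just outside. The levels show no wide gap at that line. It also parts the copies that were steady between pools from those that were not. The contrast in spread between the 2 sets is therefore not independent of the choice. The main gene stood above its copy by 2.05-fold in RpS14, 3.16-fold in RpL34, 18.2-fold in RpS15A, 24.6-fold in RpL10A, 33.2-fold in RpS19, 77.6-fold in RpS10, 92.2-fold in RpL37 and 329-fold in RpS28. The sources used here do not say how reads were shared between near-identical copies, so the split within a pair is uncertain, above all in RpS14 and RpS15A.

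The 3 copies of higher level were about as steady as their main genes. RpS14b, a protein of the small-subunit platform, read 738 ± 55.9 TPM in controls and 787 ± 52.9 TPM at 3 g and held between 30.4% and 34.2% of its pair in the 8 libraries. RpL34a read 283 ± 19.1 and 296 ± 23.3 TPM and held between 21.03% and 26.2%. RpS15Ab read 113 ± 5.10 and 115 ± 11.2 TPM and held between 4.35% and 5.86%. Their log2 differences were 0.09, 0.07 and 0.01, with 95% intervals within 0.5 of 0.

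**Figure D3:**
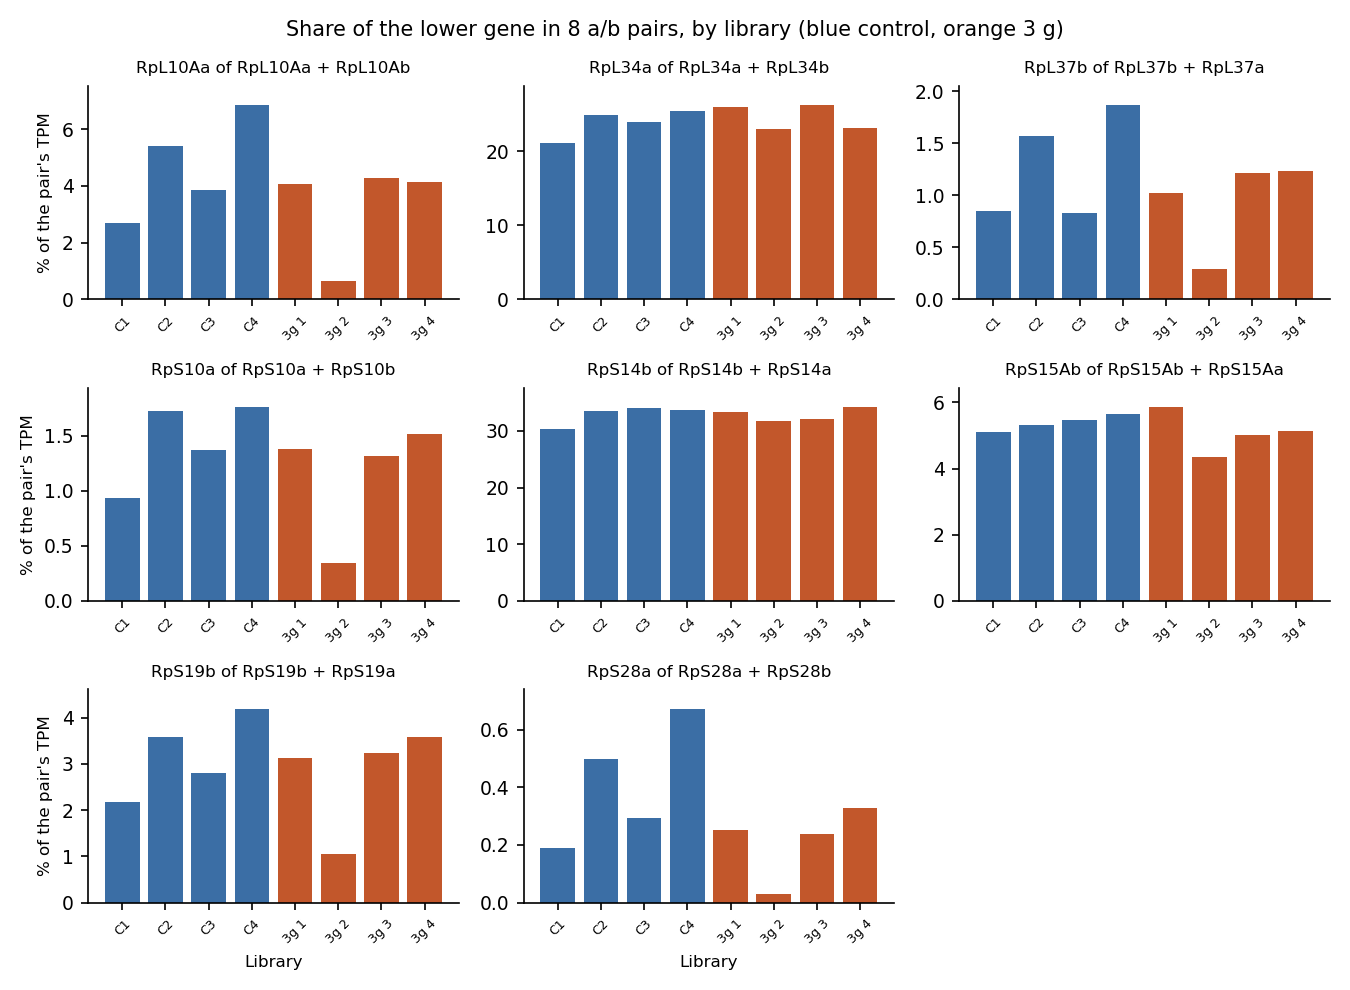
Share of the copy in the summed TPM of its a/b pair, in percent, for 8 pairs, 1 bar for each library (C1 to C4 control, 3g 1 to 3g 4 at 3 g); the vertical axes start at 0 and differ between panels. RpS14b and RpL34a hold a steady share, and in the pairs of RpL10A, RpL37, RpS10, RpS19 and RpS28 the bar of 3 g replicate 2 is the shortest by a wide margin.

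The 6 low copies varied far more between pools, and 1 pool stood lowest in all of them. RpS28a, whose protein sits near the exit of the messenger RNA from the small subunit, read 5.83, 14.1, 8.74 and 17.7 TPM in control replicates 1 to 4 and 7.43, 0.95, 7.14 and 8.75 TPM in 3 g replicates 1 to 4. RpL10Aa, of the mobile stalk where used transfer RNA leaves, read 59.8, 119, 84.4 and 130.4 TPM in controls and 93.6, 15.9, 98.9 and 84.2 TPM at 3 g. In both, 3 g replicate 2 was far under the rest and the other 3 g pools lay within the range of the controls.

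RpL37b, a zinc-binding protein of the large subunit, read 18.7, 31.9, 17.0 and 32.5 TPM in controls and 22.3, 7.16, 24.1 and 25.1 TPM at 3 g. RpS10a, of the head of the small subunit, read 11.6, 20.4, 16.0 and 18.5 TPM in controls and 16.2, 4.58, 15.6 and 19.3 TPM at 3 g. Again 3 g replicate 2 was the single low pool. RpS19b, of the head as well, read 33.5, 55.4, 39.6 and 55.1 TPM in controls and 45.7, 16.7, 43.7 and 49.4 TPM at 3 g. Here too that pool lay under all others.

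As a share of the mean of the other 3 pools at 3 g, 3 g replicate 2 held 12.2% for RpS28a, 17.2% for RpL10Aa, 26.9% for RpS10a, 30.03% for RpL37b and 36.0% for RpS19b. For the summed main genes that share was 115%, in the opposite direction. Among the controls the highest of the 4 pools was replicate 2 or replicate 4 in each of the 6 copies, and replicate 1 or replicate 3 the lowest.

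None of the low copies passed the test, and their intervals were wide. RpS28a had the largest difference, -1.06 ± 0.63 (SE) on the log2 scale with a 95% interval of -2.51 to 0.38 and an adjusted p of 0.509 by limma. Without 3 g replicate 2 that difference was -0.44. For RpL10Aa the difference was -0.66 ± 0.59 (SE), and -0.03 without that pool. RpL37b (-0.43), RpS10a (-0.39) and RpS19b (-0.32) came to -0.01, 0.06 and 0.04 without it. The intervals of RpS28a, RpL10Aa, RpL37b, RpS10a and RpS19b all reached past a 2-fold lower level, so a change of that size could not be told from the spread between these pools. Within groups, these 5 copies had an SD between 4.69 times (RpS19) and 9.79 times (RpS28) that of their main gene on the log2 scale.

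**Figure D4:**
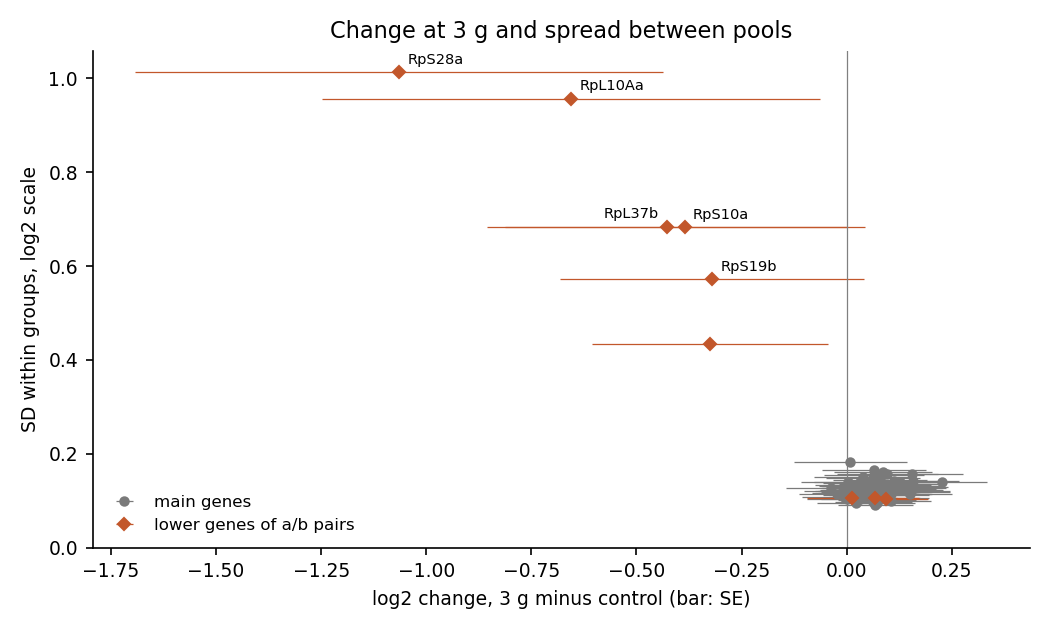
Log2 difference between 3 g and control (horizontal, bars are SE) against the SD within groups on the log2 scale (vertical) for the 79 main genes and 9 copies. The main genes and 3 copies crowd near 0 with SD under 0.2, and the 6 low copies, with 3 g replicate 2 included, lie to the left with SD up to 1.01.

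The balance within pairs was compared as log2((copy + 0.5)/(main + 0.5)) in each library. Where levels are far above 0.5 TPM this nearly cancels any factor common to a whole library. It cancels less for RpS28a in 3 g replicate 2, at 0.95 TPM. Of 9 pairs, 0 had ratios that did not overlap between the groups. Of all tested genes, taken singly, 12.5% did not overlap, so 0 of 9 pairs is not far from that share. The exact two-sided permutation test over the 8 libraries gave p between 0.229 (RpS28) and 0.943 (RpS14), unadjusted, where 4 against 4 can reach 0.0286. The log2 ratio of RpS28a to RpS28b differed by -1.10 between 3 g and control, and by -0.43 without 3 g replicate 2. This difference was -0.77 for RpL10A, -0.54 for RpL37, -0.49 for RpS10, -0.32 for RpS19, -0.09 for RpS15A, -0.0022 for RpS14 and 0.06 for RpL34. Without 3 g replicate 2 it came to -0.10 for RpL10A, -0.06 for RpL37, -0.0060 for RpS10 and, turned in sign, 0.10 for RpS19. In 7 of the 9 pairs 3 g replicate 2 had the lowest ratio of the 8 libraries.

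Markers of the male germline followed the same pools. The table held 39 of the listed markers, genes of meiotic arrest, spermatid differentiation and testis-specific subunits, and 38 of them were lowest in 3 g replicate 2, the exception being bam, at a mean of 1.04 TPM. They summed to 7072, 14865, 10904 and 15428 TPM in control replicates 1 to 4 and to 11346, 1915, 10526 and 10720 TPM in 3 g replicates 1 to 4, and none was at 0 in any library. The highest sums were those of control replicates 2 and 4, as in the sum of the 6 low copies, though not in each copy. The lowest sum was that of 3 g replicate 2, at 17.6% of the mean of the other 3 g pools. By limma 0 of the 39 were called, where 4.28% of all tested genes were, and 0 had an unadjusted p under 0.05, where 16.3% did. The smallest p were those of Mst84Db (823 ± 299 TPM in controls, 534 ± 271 TPM at 3 g) and Mst84Da, both expressed in spermatids. The median log2 difference of the 39 was -0.63, and -0.0075 without 3 g replicate 2. The part of male germline content in the low copies was not tested.

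**Figure D5:**
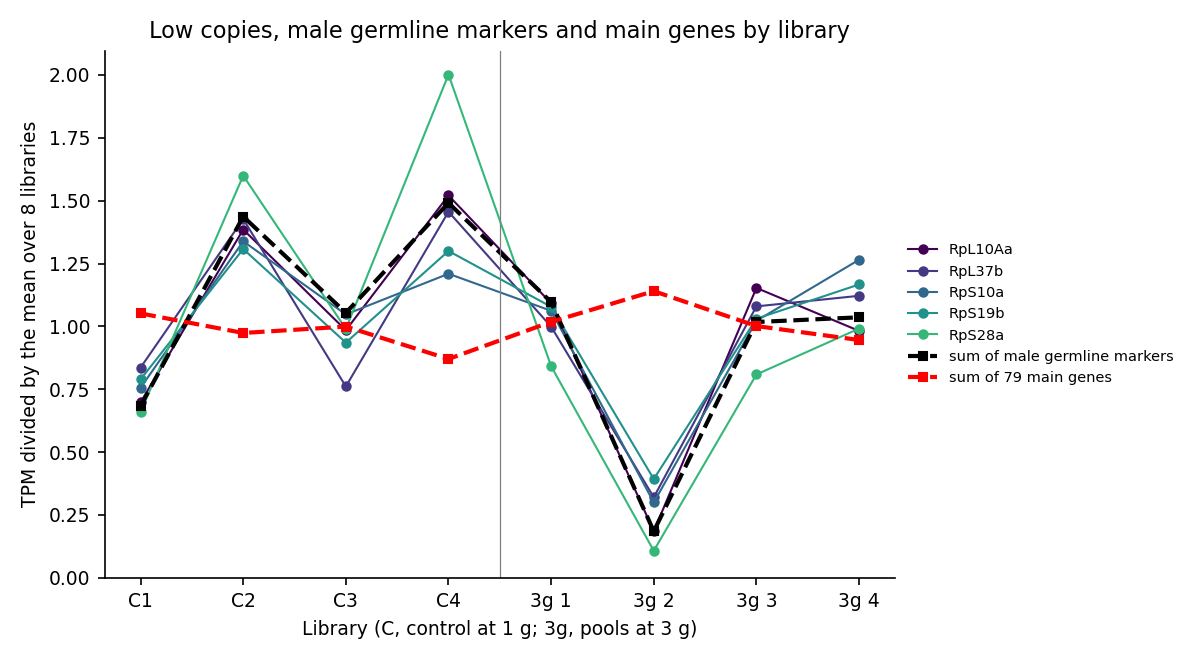
TPM of 5 low copies (circles), of the summed male germline markers (black squares, dashed) and of the summed 79 main genes (red squares, dashed) in each library, each divided by its mean over the 8 libraries. In 3 g replicate 2 the copies and the male germline sum are at their lowest while the main genes are at their highest.

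Markers of the female germline and of germ cells were mostly lowest in the same pool. Of 25 listed, 13 passed the filter, and 0 were called by limma, where 4.28% of all tested genes were. At an unadjusted p under 0.05 there was 1 of the 13, where 16.3% of all tested genes passed. It was grk, which encodes a ligand of the oocyte (22.9 ± 3.22 TPM in controls, 16.3 ± 3.47 TPM at 3 g, adjusted p = 0.208 by limma). The chorion gene Cp18 was at 1.495 and 0.885 TPM. The list summed to between 389 and 646 TPM in controls and between 221 and 591 TPM at 3 g, with 3 g replicate 2 lowest. Of the 13 tested, 10 were lowest in 3 g replicate 2, and their median log2 difference was -0.28, and 0.05 without that pool. Of the 25 genes, 6 were at 0 in some library. This list includes exu and orb, which testis also expresses.

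Related genes outside the name rule were of 2 kinds. RpL22-like, a relative of RpL22 known from the testis, read 17.9, 34.1, 25.5 and 33.3 TPM in controls and 26.9, 6.6, 23.0 and 29.7 TPM at 3 g. RpS28-like, named here after its values were seen, read 18.9, 37.7, 24.4 and 43.0 TPM in controls and 31.1, 4.08, 32.2 and 25.7 TPM at 3 g. Both had their lowest value in 3 g replicate 2, and neither was called (adjusted p = 0.689 and 0.691 by limma).

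RpL24-like, RpL7-like and RpLP0-like are named for ribosomal proteins, but their counterparts in yeast are factors of ribosome assembly. They read 133 ± 6.52 and 140.0 ± 8.65, 67.5 ± 6.99 and 69.7 ± 5.15, and 30.8 ± 4.80 and 28.5 ± 2.20 TPM in controls and at 3 g, in that order. In none of these 3 was 3 g replicate 2 the lowest library.

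The wider machinery of translation and ribosome production, taken from 2 lists of known factors, held no called gene either. Of 34 translation factors 0 were called by limma, with 2 at an unadjusted p under 0.05, where 16.3% of all tested genes were. The median log2 difference was 0.10, with 30 of 34 above 0. Without control replicate 4 the median was 0.02, with 22 above 0, and with 3 g replicate 2 left out as well 0.0017, with 18 above 0. The largest was that of Thor, the fly 4E-BP, which holds back cap-dependent initiation: 181 ± 70.8 TPM in controls and 358 ± 92.8 TPM at 3 g, a log2 difference of 1.04 ± 0.31 (SE, adjusted p = 0.127). The termination factor gene eRF1 read 213 ± 12.9 and 256 ± 20.9 TPM (adjusted p = 0.252). Of 37 factors of ribosome assembly and RNA polymerase I, 0 were called and 0 had an unadjusted p under 0.05. That list includes RpL24-like and RpLP0-like, already described above. Their median of 0.04, with 25 above 0, turned to -0.10, with 7 above 0, without control replicate 4 and to -0.02, with 15 above 0, without 3 g replicate 1. Without both control replicate 4 and 3 g replicate 2 it was -0.08. The 2 of smallest p were CG5033 (13.4 ± 2.58 and 16.0 ± 0.376 TPM, adjusted p = 0.509) and Non1 (123 ± 16.5 and 142 ± 15.3 TPM, adjusted p = 0.571).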

How the data were processed

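RNA of 8 libraries of pooled Drosophila pupae was measured, 4 at 3 g and 4 controls, with groups and replicate numbers taken from the labels. Per the submitters' processing notes, DESeq, eXpress 1.5.1, Bowtie2 2.1.0, Trimmomatic 0.30 and CASAVA were used, in roles the notes do not state. The sources used here give neither build and annotation nor whether counting used strand, so genes that overlap on opposite strands cannot be separated. The deposited values are whole numbers, treated as a score and read as TPM multiplied by 100 and rounded, because each library sums to 1000000 after division by 100. No source used here says whether a further scaling was applied. Depth is unknown, since TPM keeps no counts, and counting error cannot be stated. The planned test was kept for these values.

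Values were divided by 100, genes whose mean reached 1 TPM were kept (12044), and limma 3.58.1 (R 4.3.3) modelled log2(TPM + 0.5) on group alone, with a trend in the empirical Bayes step, adjusted by Benjamini-Hochberg at 0.05. Fold changes on this scale understate those of low genes. Pair ratios were tested by exact permutation over all 70 regroupings (scipy 1.17.1 in Python 3.11.15), and figures were drawn with matplotlib 3.10.9. The labels do not say whether pools of a group were reared separately, so a p-value reflects only how these pools varied. Names in Ensembl 115 matched 86 members directly and 2 through a synonym, RpL37a (RpL37-1) and RpL37b (RpL37-2). RpL37A, which differs from RpL37a only in letter case, is a separate member.

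Named are the pair members, the 4 of smallest p each way, the 5 highest and 5 lowest, members of known role, hyphenated relatives and the top genes of each list. RpL22, RpL35A, RpL24 and RpL27 were named after their values were seen, as was RpS28-like. Values of 1 main gene and of 1 a/b pair are not reported here, though they enter the counts. Members, lists and tests were chosen with earlier results of these data known. Alternatives were pseudocounts of 0.1 and 1, other filters, 2 rescalings, no trend, a robust fit, sample weights, a replicate block and each library left out. Chosen after seeing the data were leaving out 3 g replicate 2 and control replicate 4 together and scaling to the summed ribosomal protein TPM.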

Additional observations from a re-analysis of the deposited data

Results flagged for a closer look

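Among the 4 libraries of a group, the gap between an extreme value and its neighbour was set against the range of the group and compared with Dixon's 95% critical value. Of 132 groups tested, 12 exceeded it, and chance gives about 1 in 20. Of the 12, 8 were 3 g replicate 2, 3 were control replicate 4 and 1 was control replicate 1.

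In 3 g replicate 2 the log2 ratio of copy to main gene was -7.19 for RpL10Aa, -8.31 for RpL37b, -8.04 for RpS10a, -6.53 for RpS19b and -11.09 for RpS28a, each far under the other 3 g pools. RpL37b itself was at 7.16 TPM there, against 22.3 to 25.1 TPM in the other 3 g pools. The spermatid genes Mst84Da and Mst84Db were at 113.9 and 128 TPM, against 615.9 to 661.2 and 660.2 to 678.7 TPM. These values come from 1 pool of pupae and share it.

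In control replicate 4, RpS27A was at 2525 TPM against 2759 to 2804 TPM in the other controls, CG5033 at 9.57 TPM against 14.5 to 15.0 TPM, and TpnC4 at 735.6 TPM against 331.8 to 398.2 TPM. In control replicate 1 the log2 ratio of RpS14b to RpS14a was -1.19, lower than in the other controls.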

How the results depend on the processing

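Under all 20 alternatives 0 of the 88 ribosomal protein genes were called by limma, with the smallest adjusted p between 0.157 and 0.793. At an unadjusted p under 0.05 there were 0 in each except without 3 g replicate 4 (2) and after scaling to the summed ribosomal protein TPM (1). Calls over all genes ran from 147 with the replicate block to 1193 with sample weights, whose estimation stopped before it converged. Same-numbered libraries deviated with correlations between -0.516 and 0.0813. These values cannot settle whether the numbers pair pools, which the labels do not say. The block called 0 members. Under each alternative run for the pair ratios, 0 of 9 pairs were apart between groups. Depth is unknown, so its limit on the low copies cannot be given.

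Directions turned in the cases below, most of them of values near 0 but also of low copies and their ratios, and the cause was not tested. For the settings chosen after seeing the data the list is not complete, and main genes that turned there are not named. After median-of-ratios rescaling the log2 difference was -0.026 for RpS19a, -0.019 for RpL34b, -0.015 for RpS15Ab and -0.0061 for RpLP2. After quantile normalization it was -0.078 for RpS19a, -0.035 for RpL34b, -0.033 for RpLP2, -0.033 for RpS28b, -0.013 for RpL32, -0.013 for RpLP0, -0.0078 for RpS3 and 0.043 for RpL41. With sample weights it was -0.063 for RpL34b, -0.054 for RpL39, -0.046 for RpLP2, -0.035 for RpLP0, -0.030 for RpS28b, -0.029 for RpS15Ab, -0.025 for RpL7-like, -0.023 for RpLP1, -0.022 for sta, -0.0095 for RpS14b, -0.0089 for RpS12, -0.0078 for RpS19a, -0.00021 for RpL32, 0.059 for RpS28-like, 0.076 for RpS19b and 0.30 for RpL37b. Without 3 g replicate 2 and control replicate 4 the pair ratio differences were 0.0089 for RpS15A, 0.037 for RpS14, 0.10 for RpS10, 0.12 for RpL10A, 0.15 for RpL37 and 0.25 for RpS19. Low copies turned in that fit as well, with log2 differences of 0.12 for RpL10Aa, 0.13 for RpL37b, 0.12 for RpS10a and 0.14 for RpS19b. RpS28a stayed below 0 there, at -0.20.

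With 1 library left out at a time, log2 differences ranged from -0.083 to 0.095 for RpL34b, -0.067 to 0.043 for RpL41, -0.027 to 0.091 for RpL7-like, -0.025 to 0.088 for RpLP0, -0.028 to 0.056 for RpLP2, -0.59 to 0.060 for RpS10a, -0.053 to 0.047 for RpS15Ab, -0.055 to 0.037 for RpS19a, -0.47 to 0.042 for RpS19b, -0.94 to 0.0027 for RpS28-like, -0.014 to 0.076 for RpS28b, -0.0067 to 0.093 for RpS3 and -0.023 to 0.12 for sta. Ratio differences ranged from -0.017 to 0.10 for RpL34, -0.058 to 0.022 for RpS14 and -0.50 to 0.097 for RpS19. Without control replicate 2 the muscle genes Act79B and Mlp60A lost their call (adjusted p = 0.052 and 0.0635 by limma), with log2 differences over such fits from -2.49 to -1.94 for Act79B and -2.29 to -1.74 for Mlp60A.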
